A study of Caenorhabditis elegans with 6 samples.

Results

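The response of *Caenorhabditis elegans* to over-expression of *hlh-11*, as labelled, was described here across all 85 genes of the deposited table, by function and by abundance in wild-type worms. 4 of the 6 libraries of the series make up the comparison: 2 of *hlh-11* over-expression (OE) worms and 2 of wild-type worms of the N2 strain. The other 2, from *hlh-11* knockout (KO) worms, entered only the estimate of the spread between replicates and a side-by-side view of the fold changes. Each sample was polyadenylated RNA from about 2000 synchronized young adults, grown at 20 °C on *E. coli* OP50 and labelled with the strain name N2 in every group. Which OE strain was sequenced was not given in the sources used here, and no strain in the study's methods is labelled as OE. Strains listed there with added *hlh-11* outside the KO background carry it fused to a fluorescent protein behind its own promoter. They also carry a coinjected marker or *unc-119* rescue. The level of *hlh-11* itself was not analysed here, so the strength of the over-expression was not checked in these libraries.

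HLH-11 belongs to the basic helix-loop-helix family, whose members bind DNA as dimers at E-box elements, and its mammalian homolog is TFAP4. Factors of this family act as repressors or activators, depending on partner and site. The study asked whether genes of lipid metabolism respond together to HLH-11, and in the worm much of that metabolism takes place in the intestine, the organ that digests food, stores fat and meets bacteria. The OE libraries address which transcripts are lower and which higher in worms labelled as over-expressing *hlh-11* than in wild-type worms. No gene of the fat catabolism or fat synthesis lists was among the 85, and the same was true of the stress, oocyte and neuron lists (5 of 19 lists without a member). The 85 are a selection, so this absence says nothing about lipid genes outside them. The study reports several lipase genes as suppressed in OE worms, and the expression of most lipid metabolism genes as not affected there.

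The table is a selection. In all 85 genes the KO mean and the OE mean deviated from wild type in opposite directions, so the genes had been picked from these same libraries for opposite changes, and the tests below describe the picked genes and are no independent evidence of their direction. The libraries held 19116180 and 24023096 reads in OE and 21822815 and 16538554 reads in wild type, as inferred from the steps between RPKM values (reads of a gene scaled by its length and by the total of the library). The 85 genes took 1.46% and 1.59% of the reads in OE and 1.80% and 1.69% in wild type, and a gene had a median of 858 and 1255 reads in OE against 1395 and 955 reads in wild type. Fold changes are given as log2(RPKM + 0.5), OE minus wild type, a scale that makes the change of low genes look smaller. limma gave all genes 1 pooled standard deviation (SD), so that every log2 fold change has a standard error of 0.16, and p-values are two-sided and adjusted over the 85 genes by Benjamini-Hochberg with a threshold of 0.05. That pooling is what makes many p-values very small. They measure the spread between these libraries only, since separate cultures are not described, and an exact permutation test of 2 against 2 libraries cannot go below 0.333.

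Most of the genes were lower in the libraries labelled OE. Of the 85, 60 had a lower and 25 a higher mean in OE worms. In the test over all 85 genes, 51 fell (60% of the table) and 25 rose (29.4%), 89.4% in either direction, while 9 did not pass. Testing the whole transcriptome with DESeq2, the study also reports more genes lower than higher in OE worms. It describes that set of changed genes as relatively small. The excess of falls is thus not particular to the picked genes. Both OE libraries lay below both wild-type libraries in 59 genes (69.4%) and above them in 25 genes (29.4%), and in 1 gene, the collagen *col-144*, the groups overlapped. The changes were mostly small: the median log2 fold change was -0.58 among the 60 genes with a lower mean and 0.77 among the 25 with a higher mean. At least 2-fold changes past the threshold were made by 11 genes that fell (12.9%) and 6 that rose (7.06%). With each gene tested on its own spread alone, with no pooling over genes, 44 genes fell and 23 rose. Of these 44, 40 were among the 51. The others were *act-5*, *lap-2*, *col-129* and *gas-1*, which did not pass in the pooled test.

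The RPKM are already scaled by the total of each library, and a preselected table offers no unchanged genes against which to check that scale. The counts change when the libraries are rescaled on the picked genes themselves. Most of these had a lower OE mean, so centring on their median takes out the typical fall by construction. The calls lost in this way therefore cannot show how secure the falls are. Centring each library on its own median over the 85 genes shifted the median fold change by 0.38, after which 23 genes fell and 25 rose, all of them among the 51 and 25 above. Upper-quartile scaling shifted it by -0.35, with 60 genes lower and 18 higher.

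The 3 largest changes in the table, in either direction, were falls in transcripts of low abundance (*col-95*, *msrp-3* and *F21A3.11*). *col-95* had 1.87 and 1.02 RPKM in OE worms, against 25.8 and 25.9 RPKM in wild-type worms, and this cuticle collagen had the lowest fold change of the table, -3.80 on the log2 scale (adjusted p = 6.64e-66). *msrp-3* had 1.58 and 1.05 RPKM in OE worms, against 12.1 and 10.6 RPKM in wild-type worms, a log2 fold change of -2.72 (adjusted p = 2.32e-43). The OE values of both genes rest on few reads, 38 and 26 reads for *col-95* and 12 and 10 reads for *msrp-3*, and in both genes the OE and wild-type libraries stood far apart. *F21A3.11* had 0.557 and 0.912 RPKM in OE worms, against 4.53 and 3.86 RPKM in wild-type worms, a log2 fold change of -1.94 (adjusted p = 2.81e-26), and its OE counts were 17 and 35 reads. *F21C10.10* had 5.48 and 7.08 RPKM in OE worms, against 17.8 and 24.1 RPKM in wild-type worms, a log2 fold change of -1.65 (adjusted p = 1.62e-20). The OE libraries differed from each other by less than either differed from the wild-type libraries in each of these genes.

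A further 6 genes completed the 10 lowest fold changes. *clec-85* had 7.71 and 12.7 RPKM in OE worms, against 30.8 and 29.2 RPKM in wild-type worms, a log2 fold change of -1.55 (adjusted p = 1.63e-18), and *clec-67* had 0.407 and 0.830 RPKM in OE worms, against 2.47 and 2.50 RPKM in wild-type worms, a log2 fold change of -1.44 (adjusted p = 1.44e-16); both encode C-type lectins, secreted carbohydrate-binding proteins many of which respond to infection. By the annotation, 27.7% of the exon bases of *clec-85* are shared with *Y54G2A.40* on the same strand, so its reads may come in part from that gene. *sdz-24* had 2.09 and 2.54 RPKM in OE worms, against 7.05 and 8.03 RPKM in wild-type worms, a log2 fold change of -1.51 (adjusted p = 6.86e-18), where *sdz* stands for SKN-1 dependent zygotic transcript. *endu-2* had 8.996 and 11.8 RPKM in OE worms, against 27.5 and 26.4 RPKM in wild-type worms, a log2 fold change of -1.35 (adjusted p = 8.11e-15), and its product is an endoribonuclease of the EndoU family. *spp-18* had 9.79 and 14.7 RPKM in OE worms, against 33.0 and 29.0 RPKM in wild-type worms, a log2 fold change of -1.33 (adjusted p = 1.42e-14); saposin-like proteins of this family include antimicrobial members. *Y43F8C.3* had 0.805 and 0.489 RPKM in OE worms, against 2.13 and 2.301 RPKM in wild-type worms, the lowest wild-type mean of the table, a log2 fold change of -1.26 (adjusted p = 2.84e-13). Of these 6, *clec-67* rested on 16 and 41 reads in OE, *sdz-24* on 38 and 58 reads and *Y43F8C.3* on 38 and 29 reads, and 7 genes in all had under 100 reads in at least 1 OE library.

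The transcripts that rose most were those of defence genes and of genes known by a sequence name. *dod-24* had 44.2 and 54.6 RPKM in OE worms, against 14.9 and 11.7 RPKM in wild-type worms, a log2 fold change of 1.85 (adjusted p = 1.51e-24), and *dod-23* had 231 and 250.4 RPKM in OE worms, against 92.5 and 86.4 RPKM in wild-type worms, a log2 fold change of 1.42 (adjusted p = 3.30e-16). Both are named for lying downstream of the insulin-pathway transcription factor DAF-16. *irg-4* had 21.96 and 21.6 RPKM in OE worms, against 10.9 and 8.13 RPKM in wild-type worms, a log2 fold change of 1.17 (adjusted p = 8.67e-12); *irg-4* is an infection response gene. *F55G11.2* had 8.83 and 10.5 RPKM in OE worms, against 4.80 and 4.66 RPKM in wild-type worms, a log2 fold change of 0.96 (adjusted p = 1.69e-08), and this pathogen-response gene had the lowest wild-type level among the genes that rose. In these 4 genes both OE libraries lay above both wild-type libraries.

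Among the others of the 10 highest fold changes, *W02D9.6* had 48.8 and 52.4 RPKM in OE worms, against 18.2 and 15.2 RPKM in wild-type worms, a log2 fold change of 1.57 (adjusted p = 5.48e-19). *Y57G11B.5* had 216 and 209 RPKM in OE worms, against 101 and 86.2 RPKM in wild-type worms, a log2 fold change of 1.18 (adjusted p = 5.93e-12), and *ZK105.1* had 253 and 237 RPKM in OE worms, against 128 and 109 RPKM in wild-type worms, a log2 fold change of 1.05 (adjusted p = 7.79e-10). These 3 genes have only a sequence name, and the OE libraries lay close together in each. *gst-4* had 59.5 and 57.0 RPKM in OE worms, against 34.4 and 27.5 RPKM in wild-type worms, a log2 fold change of 0.91 (adjusted p = 6.96e-08); the enzyme is a glutathione S-transferase, and its gene is a common reporter of the oxidative stress regulator SKN-1. *T03D3.5* had 23.6 and 24.9 RPKM in OE worms, against 13.4 and 12.7 RPKM in wild-type worms, a log2 fold change of 0.87 (adjusted p = 2.60e-07), and *C27C7.1* had 74.4 and 75.2 RPKM in OE worms, against 37.2 and 45.8 RPKM in wild-type worms, a log2 fold change of 0.85 (adjusted p = 4.24e-07). Read counts were not limiting on this side, the lowest OE count of a gene that rose being 182 reads.

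**Figure D1:**
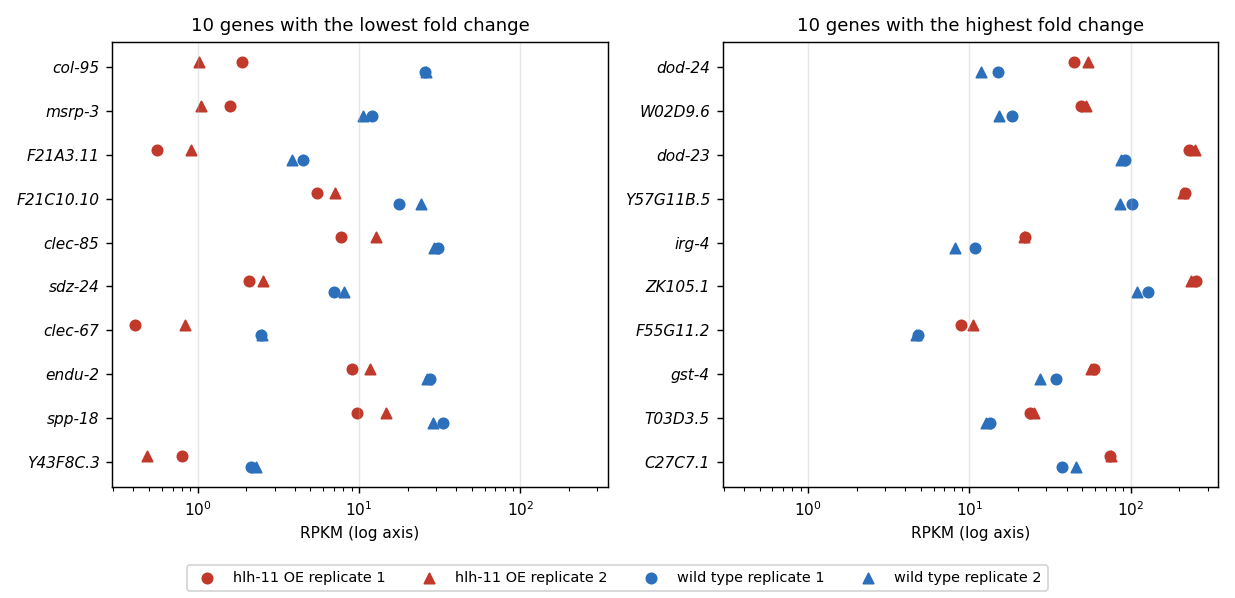
RPKM of the 10 genes with the lowest (left) and the 10 with the highest (right) OE minus wild-type fold change, on log axes, with each library as a point: red for OE and blue for wild type, circles for replicate 1 and triangles for replicate 2. The 2 OE libraries lie on 1 side of both wild-type libraries in all 20 genes, from *col-95* at 1.87 and 1.02 RPKM in OE against 25.8 and 25.9 RPKM in wild type to *dod-24* at 44.2 and 54.6 RPKM in OE against 14.9 and 11.7 RPKM in wild type.

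The genes were then grouped by function. The groups were formed mostly from gene names, with earlier results of these data known, and most are small. 6 genes were put into a class after the table was seen, among them both transthyretin-related genes. The counts of the groups are read against the 60% of the table that fell and the 29.4% that rose, without a test of any group. In whole worms, fewer cells of a type and less RNA per cell cannot be told apart.

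Cuticle collagens, which are secreted by the hypodermis to form the exoskeleton, made up 7 of the genes. 5 of the 7 fell, close to the 60% of the table, and the group had a median log2 fold change of -0.39 against -0.42 over all genes. The summed level of the group was 4268 and 4567 RPKM in OE, against 6024 and 5404 RPKM in wild type, so the OE libraries did not overlap the wild-type libraries. Most of this sum comes from *col-139*, *col-81* and *col-129*. The sum over all genes of the table did not overlap either (13437 and 14510 RPKM in OE, 15947 and 14772 RPKM in wild type). Beside *col-95*, *col-150* had 5.67 and 9.87 RPKM in OE worms, against 19.0 and 14.2 RPKM in wild-type worms, a log2 fold change of -1.08 (adjusted p = 2.44e-10), and *col-180* had 15.9 and 21.7 RPKM in OE worms, against 45.3 and 28.2 RPKM in wild-type worms, a log2 fold change of -0.93 (adjusted p = 4.28e-08). Both had a wide spread between the wild-type libraries, and on their own spread alone their adjusted p was 0.0652 and 0.0765. The most abundant transcripts of the whole table were collagens too, and they changed little. *col-139* had 1556 and 1596 RPKM in OE worms, against 2183 and 1954 RPKM in wild-type worms, a log2 fold change of -0.39 (adjusted p = 0.0163). *col-81* had 1243 and 1379 RPKM in OE worms, against 1803 and 1615 RPKM in wild-type worms, a log2 fold change of -0.38 (adjusted p = 0.0187). Neither passed without wild-type replicate 1, nor *col-81* without OE replicate 1. 2 collagens did not pass: *col-129* had 1423 and 1532 RPKM in OE worms, against 1913 and 1744 RPKM in wild-type worms (adjusted p = 0.0563, log2 fold change -0.31), and *col-144* had 22.8 and 28.04 RPKM in OE worms, against 35.1 and 21.8 RPKM in wild-type worms (adjusted p = 0.418, log2 fold change -0.13). Under median centring *col-129* and *col-144* were on the higher side and 3 of the 7 fell.

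All 6 sperm genes fell, against 60% of the table, with a median log2 fold change of -0.71 against -0.42 over all genes. Their summed level was 417 and 489 RPKM in OE against 806 and 636 RPKM in wild type. 5 of them encode the major sperm protein, the cytoskeletal protein that drives the crawling of nematode sperm and also serves as a signal to oocytes. *msp-49* had 47.8 and 55.9 RPKM in OE worms, against 120.1 and 86.3 RPKM in wild-type worms, a log2 fold change of -0.97 (adjusted p = 1.07e-08). *msp-45* had 63.3 and 81.2 RPKM in OE worms, against 142 and 107 RPKM in wild-type worms, a log2 fold change of -0.78 (adjusted p = 3.48e-06), and *msp-3* had 49.0 and 45.4 RPKM in OE worms, against 83.4 and 72.3 RPKM in wild-type worms, a log2 fold change of -0.71 (adjusted p = 1.98e-05). The other 3, *msp-50* (-0.70), *nspd-5* (-0.53) and *msp-33* (-0.46), fell by less, and the last 2 lost their call without OE replicate 1, without wild-type replicate 1 and on their own spread. The direction was the same in the 6 genes under median centring, where 3 of them passed. Genes of the *msp* family are near-identical in sequence, so reads may have been split between its members.

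Of the 4 aspartyl proteases, relatives of cathepsin D, 3 fell and 1 rose, against 60% and 29.4% of the table. *asp-4* had 124 and 137 RPKM in OE worms, against 212 and 195.9 RPKM in wild-type worms, a log2 fold change of -0.64 (adjusted p = 1.17e-04). *asp-13* had 224 and 245 RPKM in OE worms, against 169.9 and 160.4 RPKM in wild-type worms, a log2 fold change of 0.50 (adjusted p = 0.00226). *asp-3* had 505 and 571 RPKM in OE worms, against 714 and 736 RPKM in wild-type worms, a log2 fold change of -0.43 (adjusted p = 0.0081). The fall of *asp-5* (-0.32, adjusted p = 0.0478) did not pass without OE replicate 1 or without either wild-type library, and under median centring none of the 3 falls passed and *asp-5* lay on the higher side. Of 4 other peptidases, 2 fell and 1 rose. *tag-196*, a cathepsin F relative, fell, with 17.2 and 18.00 RPKM in OE worms, against 28.6 and 25.8 RPKM in wild-type worms and a log2 fold change of -0.61 (adjusted p = 2.25e-04). *ctsa-1.1* and *ctsa-1.2*, both homologs of cathepsin A, went opposite ways. *ctsa-1.1* had 418 and 451 RPKM in OE worms, against 312 and 286 RPKM in wild-type worms, a log2 fold change of 0.54 (adjusted p = 0.00114), whereas *ctsa-1.2* had 109 and 116 RPKM in OE worms, against 158 and 159 RPKM in wild-type worms, a log2 fold change of -0.49 (adjusted p = 0.00273). The leucine aminopeptidase *lap-2* did not pass, with 152 and 152 RPKM in OE worms, against 174 and 179 RPKM in wild-type worms (adjusted p = 0.172, log2 fold change -0.22), and it lay on the higher side under median centring, where the falls of *tag-196* and *ctsa-1.2* did not pass either. Upper-quartile scaling took the call from both rises, *asp-13* (0.15, adjusted p = 0.258) and *ctsa-1.1* (0.19, adjusted p = 0.161), and left 3 genes lower and 0 higher in each of these groups.

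Of 3 lipid carriers, 2 fell, close to the 60% of the table. *lbp-7* had 19.1 and 18.3 RPKM in OE worms, against 34.2 and 35.5 RPKM in wild-type worms, a log2 fold change of -0.88 (adjusted p = 1.81e-07); LBP-7 is an intracellular fatty acid binding protein. *dsc-4* had 17.7 and 24.1 RPKM in OE worms, against 35.1 and 36.0 RPKM in wild-type worms, a log2 fold change of -0.77 (adjusted p = 4.64e-06); DSC-4 is a microsomal triglyceride transfer protein subunit, part of the complex that loads lipid onto lipoproteins. The remaining carrier, *npa-1*, which encodes a nematode polyprotein that binds fatty acids and retinol, had 82.2 and 91.9 RPKM in OE worms, against 103.7 and 99.4 RPKM in wild-type worms (adjusted p = 0.164, log2 fold change -0.22, on the higher side under median centring). The calls of *lbp-7* and *dsc-4* were kept under each alternative run.

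Of 5 genes of intermediary metabolism 4 fell, against 60% of the table. *smd-1*, *bcat-1* and *gas-1* were put into this group after the table was seen. *endu-2* (log2 fold change -1.35), which matched the list by name, was taken out of it. The count therefore rests in part on that choice. *pck-1* had 17.9 and 23.9 RPKM in OE worms, against 41.7 and 38.5 RPKM in wild-type worms, a log2 fold change of -0.94 (adjusted p = 3.21e-08); phosphoenolpyruvate carboxykinase is the committing enzyme of gluconeogenesis. *adh-1* had 13.8 and 12.99 RPKM in OE worms, against 21.5 and 20.4 RPKM in wild-type worms, a log2 fold change of -0.63 (adjusted p = 1.53e-04), for an alcohol dehydrogenase. *smd-1* had 74.1 and 76.9 RPKM in OE worms, against 102 and 112 RPKM in wild-type worms, a log2 fold change of -0.50 (adjusted p = 0.00267), for the S-adenosylmethionine decarboxylase of polyamine synthesis. The branched-chain amino acid transaminase *bcat-1* was close to the threshold (-0.33, adjusted p = 0.0405) and lost its call without OE replicate 1 and without either wild-type library. *asp-5*, *bcat-1* and *lec-2*, a galectin, also lost theirs when either KO library was left out of the fit. *gas-1*, a subunit of respiratory complex I, did not pass, with 58.5 and 66.1 RPKM in OE worms, against 78.0 and 73.5 RPKM in wild-type worms (adjusted p = 0.079, log2 fold change -0.28). Under median centring *pck-1* alone of the 5 passed, and *bcat-1* and *gas-1* lay on the higher side.

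All 3 galectins, which bind beta-galactosides, fell, against 60% of the table, led by *lec-9*, with 78.8 and 95.9 RPKM in OE worms, against 169 and 179 RPKM in wild-type worms and a log2 fold change of -0.995 (adjusted p = 5.11e-09). This was the lowest fold change in the most abundant bin of the table. *lec-10* had 151 and 180.3 RPKM in OE worms, against 233 and 224 RPKM in wild-type worms, a log2 fold change of -0.47 (adjusted p = 0.00417). *lec-2* had 49.4 and 57.6 RPKM in OE worms, against 70.7 and 63.2 RPKM in wild-type worms, a log2 fold change of -0.32 (adjusted p = 0.0461), but *lec-2* did not pass without OE replicate 1 or wild-type replicate 1 and lay on the higher side under median centring. Of the 4 C-type lectins, *clec-85*, *clec-67* and *clec-63* fell and *clec-10* rose, against 60% and 29.4% of the table. *clec-10* had 28.9 and 28.9 RPKM in OE worms, against 18.00 and 15.7 RPKM in wild-type worms, a log2 fold change of 0.77 (adjusted p = 4.79e-06). The abundant *clec-63* (-0.46, adjusted p = 0.00489) did not pass without OE replicate 1 or wild-type replicate 1. Under median centring 1 of the 3 galectins and 2 of the 4 C-type lectins fell, with *lec-10* at -0.094 (adjusted p = 0.645) and *clec-63* at -0.084 (adjusted p = 0.690).

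Of the 6 other immune response genes 5 rose, against 29.4% of the table, with a median log2 fold change of 1.06. Beside the 4 described above, *thn-2* had 53.5 and 46.7 RPKM in OE worms, against 27.8 and 28.4 RPKM in wild-type worms, a log2 fold change of 0.82 (adjusted p = 9.65e-07); thaumatin-like proteins are known for antimicrobial roles in plants. The exception was *spp-18*. All 6 kept their calls under each alternative run, both rescalings included. With *spp-18* and 3 C-type lectins lower and *clec-10* higher, genes of defence were found in both directions.

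Other functions were represented by 1 or 2 genes each. Of the conjugation enzymes, *gst-4* rose and *ugt-50*, a UDP-glucuronosyltransferase, fell, with 6.03 and 7.13 RPKM in OE worms, against 10.9 and 11.1 RPKM in wild-type worms and a log2 fold change of -0.71 (adjusted p = 2.29e-05); its exons share 16.98% of their bases with *nhr-26* on the opposite strand. The sole non-coding RNA, *tts-1*, which is abundant in long-lived insulin-receptor mutants, fell, with 11.6 and 11.9 RPKM in OE worms, against 26.5 and 21.2 RPKM in wild-type worms and a log2 fold change of -0.99 (adjusted p = 6.93e-09). *ccch-1* had 11.4 and 14.02 RPKM in OE worms, against 19.7 and 17.3 RPKM in wild-type worms, a log2 fold change of -0.53 (adjusted p = 0.00137), for a CCCH-type zinc finger protein. Of 2 transthyretin-related genes, *ttr-17* fell, with 35.2 and 40.7 RPKM in OE worms, against 61.6 and 48.7 RPKM in wild-type worms and a log2 fold change of -0.53 (adjusted p = 0.0014), and *ttr-51* rose, with 302 and 279.8 RPKM in OE worms, against 223 and 199 RPKM in wild-type worms and a log2 fold change of 0.46 (adjusted p = 0.00479). Of 2 membrane transporters, *slc-17.6* fell, with 8.11 and 10.6 RPKM in OE worms, against 14.3 and 14.3 RPKM in wild-type worms and a log2 fold change of -0.60 (adjusted p = 2.84e-04). The half-type ABC transporter *haf-9*, which is needed for gut granules, had 24.1 and 28.3 RPKM in OE worms, against 34.3 and 30.8 RPKM in wild-type worms (adjusted p = 0.0552, log2 fold change -0.31). Without wild-type replicate 1 the falls of *ttr-17* (adjusted p = 0.0902) and *ccch-1* (adjusted p = 0.0502) did not pass. Under median centring those of *ttr-17*, *ccch-1*, *slc-17.6* and *ugt-50* did not, and under upper-quartile scaling the rise of *ttr-51* did not.

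Among abundant housekeeping or intestinal genes, 3 more did not pass. The intestinal actin *act-5*, which builds the microvilli, had 465 and 521 RPKM in OE worms, against 596 and 613 RPKM in wild-type worms (adjusted p = 0.0659, log2 fold change -0.30). Calreticulin, *crt-1*, had 711 and 749.8 RPKM in OE worms, against 867 and 853 RPKM in wild-type worms (adjusted p = 0.142, log2 fold change -0.24), and the translation elongation factor *eef-1A.2* had 234 and 262 RPKM in OE worms, against 288 and 282 RPKM in wild-type worms (adjusted p = 0.205, log2 fold change -0.20). In each of the 3 both OE libraries lay below both wild-type libraries, and each lay on the higher side under median centring. Of the other named genes, *rips-1* fell, with 13.9 and 16.6 RPKM in OE worms, against 30.4 and 28.3 RPKM in wild-type worms and a log2 fold change of -0.92 (adjusted p = 4.29e-08). *cal-5* (-0.42) and *test-1* (-0.41) fell by less, and neither passed without wild-type replicate 1 (adjusted p = 0.112 for *cal-5* and 0.0947 for *test-1*) or under median centring. *cal-5* also lost its call without OE replicate 1 (adjusted p = 0.0957) and on its own spread. *ule-5*, named for expression in the uterine lumen, rose, with 335 and 361 RPKM in OE worms, against 219 and 206 RPKM in wild-type worms and a log2 fold change of 0.71 (adjusted p = 2.29e-05), and *srlf-7* rose by 0.56, a call that upper-quartile scaling removed.

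The largest group, 24 genes, has a sequence name only, and 11 of them fell and 13 rose, against 60% and 29.4% of the table. 7 fell without wild-type replicate 1 and 5 under median centring, and 10 rose under upper-quartile scaling. It holds 13 of the 25 genes that rose, and its median log2 fold change of 0.50 was on the other side of zero from that of the table. Beside those described above, *F49C12.7* had 6.51 and 6.39 RPKM in OE worms, against 13.8 and 11.8 RPKM in wild-type worms, a log2 fold change of -0.93 (adjusted p = 3.37e-08), and *F22B7.9* had 9.63 and 12.7 RPKM in OE worms, against 21.3 and 20.7 RPKM in wild-type worms, a log2 fold change of -0.90 (adjusted p = 1.02e-07). 3 neighbouring genes on chromosome X rose together. *ZK813.1* had 157 and 169 RPKM in OE worms, against 89.4 and 93.9 RPKM in wild-type worms, a log2 fold change of 0.83, while *ZK813.7* rose by 0.72 and *ZK813.3* by 0.65. *ZK813.3* starts at X:3441839 and *ZK813.1* ends at X:3446935 (WBcel235). A second pair on X, *Y62H9A.5* (0.64) and *ule-5*, lies 226 bases apart on opposite strands and also rose. With *msp-49* and *msp-50* on chromosome II, these made 4 neighbouring pairs within 20000 bases, and the members of each pair changed in 1 direction. *ZK813.7* is in more than 1 pair, and the near-identical *msp* genes may share reads, so the pairs are not independent. With 60% of the table lower, many pairs of distant genes share a direction too, and no comparison with such pairs was made.

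**Figure D2:**
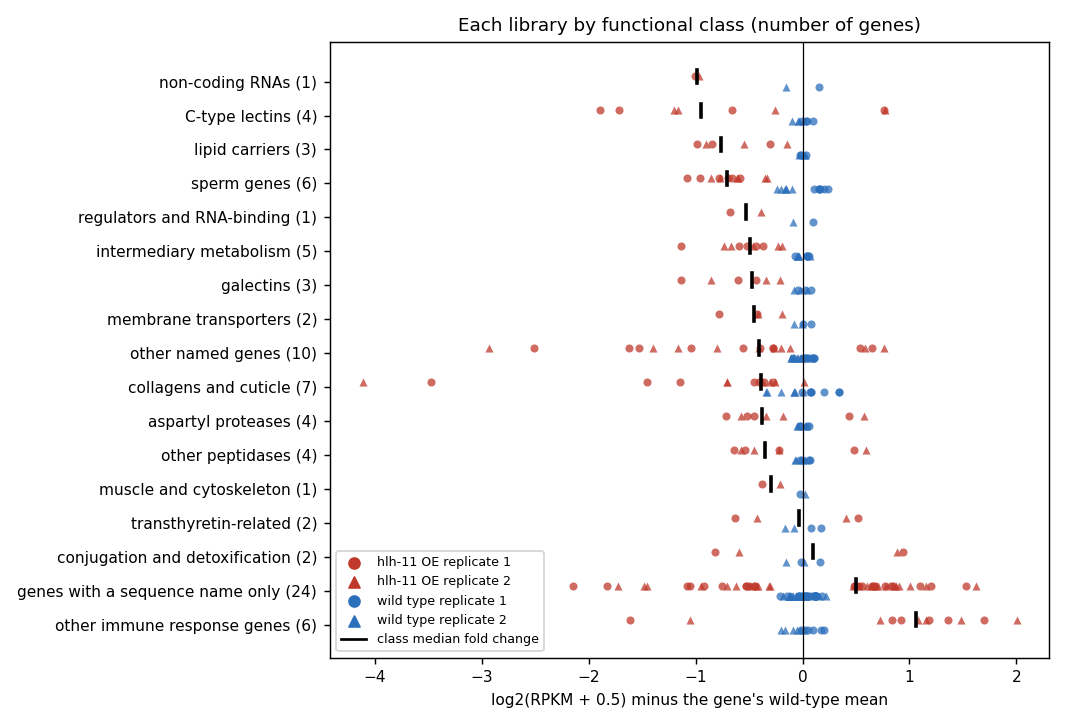
Difference of each library from the gene's wild-type mean, as log2(RPKM + 0.5), for the 85 genes by functional class: red for OE and blue for wild type, circles for replicate 1 and triangles for replicate 2, with black bars for the class median fold change. Classes run from the lowest median (*tts-1*, -0.99) to the highest (other immune response genes, 1.06), and the number of genes is in parentheses.

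By wild-type abundance, fold changes were smallest among the most abundant genes, in both directions. The genes had been picked for opposite changes in OE and KO worms. If this was done by a significance test, low genes needed larger fold changes to enter, so the trend cannot be told apart from the selection. The 85 genes were put into 3 bins by their mean wild-type RPKM: 29 genes up to 30.0 RPKM, 28 from 30.96 to 130.2 RPKM and 28 from 134 to 2069 RPKM. The median log2 fold change was -0.71 in the lowest bin, -0.41 in the middle bin and -0.30 in the highest bin. Among the genes with a lower OE mean it was -0.99, -0.50 and -0.45 in that order, and among those with a higher mean 0.91, 0.91 and 0.58. Of the falls of at least 2-fold, 10 were in the lowest bin, 1 in the middle bin (*spp-18*) and 0 in the highest bin, and of the rises 3 were in the lowest, 3 in the middle and 0 in the highest bin.

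Across the 60 genes with a lower mean, the log2 of the wild-type mean correlated with the fold change at a Pearson r of 0.53 and a Spearman rho of 0.65. Across the 25 with a higher mean the values were -0.55 and -0.68. Genes are not independent replicates, the 85 share the same 4 libraries, and the wild-type level enters both axes, so these are descriptions without a p. With bins set by the mean over all 6 libraries instead, the medians were -0.63, -0.42 and -0.30. Low genes also varied more: the median SD between replicates of a group was 0.16 on the log2 scale in the lowest bin, 0.12 in the middle bin and 0.11 in the highest bin, and the part this plays in the trend was not tested.

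In the lowest bin 20 genes fell, 8 rose and 1 did not pass. The middle bin had 18 falls, 7 rises and 3 genes that did not pass, and the highest bin had 13, 10 and 5. Without wild-type replicate 1 the falls numbered 19, 10 and 6 from the lowest to the highest bin, without OE replicate 1 they numbered 20, 14 and 8, and under median centring 14, 8 and 1. At the bottom of the range were *Y43F8C.3*, *clec-67* and *F21A3.11*, with wild-type means of 2.22, 2.49 and 4.20 RPKM, and all 3 fell by at least 2-fold. At the top were *col-139*, *col-129* and *col-81*, with wild-type means of 2069, 1829 and 1709 RPKM and log2 fold changes between -0.39 and -0.31. Under median centring, 1 gene of the highest bin fell, *lec-9*, and 10 rose.

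**Figure D3:**
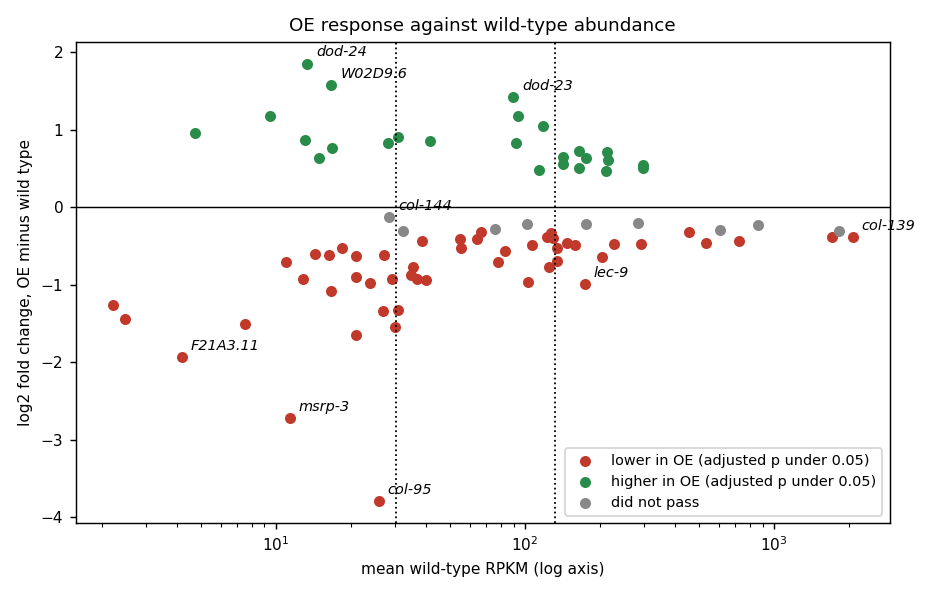
OE minus wild-type log2 fold change of the 85 genes against mean wild-type RPKM (log axis), with red for the 51 genes that fell, green for the 25 that rose and grey for the 9 that did not pass, and dotted lines between the 3 abundance bins. Points lie closest to zero in the highest bin, where *col-139* is at -0.39. The lowest point, *col-95* at -3.80, has a wild-type mean of 25.9 RPKM, and the leftmost point, *Y43F8C.3*, is at -1.26.

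In absolute terms the abundant genes carried most of the change. The 60 genes with a lower mean lost 3110 RPKM in sum, with 9059 and 9991 RPKM in OE against 13111 and 12161 RPKM in wild type. The collagens *col-139*, *col-81* and *col-129* lost 493, 398 and 351 RPKM, together 39.9% of the loss, although *col-129* did not pass the test. The next were *asp-3* with a loss of 187 RPKM and *clec-63* with 142 RPKM, and the 10 largest losses made up 66.6% of the sum. The 9 genes that did not pass lost 691 RPKM of the 3110 RPKM. Among the 10 largest losses, *crt-1* and *act-5* did not pass either. None of those 10 was among the 10 genes with the lowest fold change (0 shared).

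The 25 genes with a higher mean gained 1725 RPKM, with 4378 and 4519 RPKM in OE against 2836 and 2611 RPKM in wild type. The 10 largest gains made up 69.0% of that sum. *dod-23* gained 151 RPKM, *ctsa-1.1* gained 136 RPKM and *ule-5* gained 135 RPKM, and 3 genes (*dod-23*, *ZK105.1* and *Y57G11B.5*) were among the 10 highest by both measures. The whole table summed to 13437 and 14510 RPKM in OE, against 15947 and 14772 RPKM in wild type, and in this total the groups lay next to each other.

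**Figure D4:**
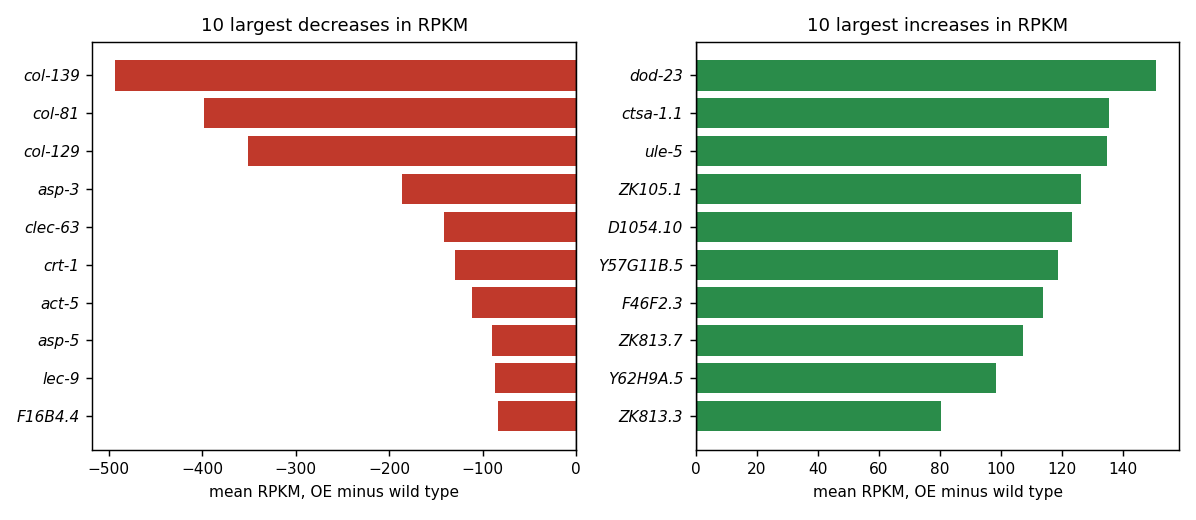
Mean RPKM, OE minus wild type, of the 10 genes with the largest decrease (left, red) and the 10 with the largest increase (right, green), with bars from 0 and different horizontal scales. *col-139* lost 493 RPKM and *dod-23* gained 151 RPKM.

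The 2 OE libraries differed in the size of the falls. OE replicate 1 was below OE replicate 2 in 51 of the 60 genes with a lower mean and in 16 of the 25 with a higher mean. Relative to the wild-type mean, the median difference of the 60 genes was -0.66 in OE replicate 1 and -0.48 in OE replicate 2, whereas that of the 25 genes was 0.76 and 0.77. Wild-type replicate 1 in turn was above wild-type replicate 2 in 66 of the 85 genes. Accordingly 42 genes fell when OE replicate 1 was left out and 55 when OE replicate 2 was. With wild-type replicate 1 left out 35 fell, and with wild-type replicate 2 left out 51 did. Rises numbered 24 or 25 in each case. The widest gap between the OE libraries was 0.75 on the log2 scale.

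**Figure D5:**
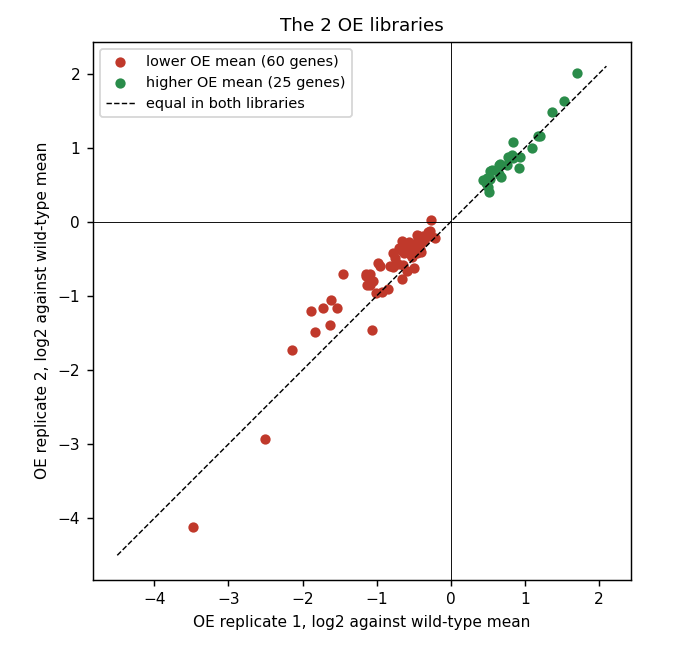
Log2 difference from the wild-type mean in OE replicate 2 against OE replicate 1 for the 85 genes, red for the 60 with a lower OE mean and green for the 25 with a higher one, with a dashed line where both are equal. Most red points lie above the line (51 of 60, less low in replicate 2), and the green points lie along it.

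On the chromosomes, the genes lay mostly on V (23), X (20), II (16) and IV (16), with 5 each on I and III. The X share was 23.5%, against 13.7% of annotated protein-coding genes. Of the genes that rose, 8 (32%) lay on IV, against 18.8% of the table, and 7 (28%) on X, against 23.5% of the table. Those on X include the neighbouring genes described above, and no chromosome was tested. Exons of 21 of the 85 genes overlap those of another annotated gene, by under 10% of their bases except in *clec-85*, *ugt-50*, *F49C12.7* (12.97%) and *test-1* (12.5%), and the use of strand in the counting was not given in the sources used here.

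Set beside the KO contrast, which shares the wild-type libraries and by which the genes were also picked, the OE response differed in size from gene to gene, and these differences were not tested. *col-95* had -3.80 in OE and 3.43 in KO, and *dod-24* had 1.85 in OE and -3.01 in KO. *msrp-3* had -2.72 in OE and 1.17 in KO, whereas *col-144* had -0.13 in OE and 2.76 in KO. *W02D9.6* had 1.57 in OE and -0.76 in KO, and *F46F2.3* had 0.61 in OE and -2.62 in KO. The median over the 60 genes was -0.58 in OE and 0.77 in KO, and over the 25 genes 0.77 in OE and -0.53 in KO.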

How the data were processed

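Polyadenylated RNA from whole worms was sequenced by the authors on a HiSeq2500, with 2 libraries per genotype (OE, KO and wild type). Alignment with TopHat2 to WBcel235, quality control with FastQC 0.11.5 and testing with DESeq2 are named in the submitters' processing notes. The counting step, including its use of strand, was not given in the sources used here.

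RPKM values were deposited by the authors, 1 per gene and library, for 85 genes, a selection in which the OE mean and the KO mean depart from wild type in opposite directions. Gene identifiers were matched to the WBcel235 annotation for all 85. With 1 fitted total for each library and 1 fitted length for each gene, all 510 values came out as whole reads to within 1e-06 reads. The common scale of the recovered totals rests on 3 genes whose recovered length equals the annotated exon length, 61 being within 10% of theirs. They are inferred, and whether they count mapped or assigned reads is not given.

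The deposited RPKM were transformed to log2(RPKM + 0.5), and a linear model was fitted with limma 3.58.1 (R 4.3.3, constant prior, two-sided) over the 6 libraries, with Benjamini-Hochberg adjustment over 85 genes and a threshold of 0.05. DESeq2, the authors' test, needs counts and was replaced. The prior degrees of freedom were infinite, which gave each gene the pooled SD of 0.157. In 50 simulated tables of 85 genes with that spread, the OE contrast called 80.2% of genes shifted by 0.5 on the log2 scale, 100% of those shifted by 1 and 2.36% of unshifted genes. Every simulated gene had the same spread and none was picked by its change. The real genes were picked, and their own SD differed (0.034 for *lbp-7*, 0.35 for *col-150*), so these rates do not carry over to them.

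The genes, 19 gene lists and tests were chosen with earlier results of these data known, and 6 genes were put into a class after the table was seen. Full values were planned for the 10 lowest and 10 highest fold changes with both OE libraries beyond both wild-type libraries, up to 3 members of each list, the 3 highest and 3 lowest wild-type means, and every gene that did not pass. All other genes in the text were named after their values were seen. Alternatives were 2 pseudocounts (0.1 and 1), a filter at a mean of 5 RPKM, the OE and wild-type libraries alone, limma-trend, no empirical Bayes, a replicate block, median centring, upper-quartile scaling, voom on the recovered reads, abundance bins set by the mean over all libraries, and leaving out each library. A planned search of promoters for E-box motifs was not run, since no DNA sequence was used here.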

Additional observations from a re-analysis of the deposited data

How the results depend on the processing

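Of the 51 genes that fell, 21 kept call and direction under every alternative and 35 without any 1 library. Of the 25 that rose the counts were 18 and 24. Leaving out 1 library gave 35 to 55 genes lower and 24 to 25 higher, and medians by wild-type abundance of -0.82 to -0.67 in the lowest bin, -0.46 to -0.30 in the middle bin and -0.37 to -0.22 in the highest bin. Median centring of each library gave 23 genes lower, and medians of -0.33, -0.034 and 0.075 in the lowest, middle and highest bin. Upper-quartile scaling gave medians of -1.04, -0.76 and -0.65. Both follow from the shifts they apply to every gene, 0.38 and -0.35 at the median.

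Median centring turned the direction of 12 genes: *bcat-1* (0.044), *lec-2* (0.053), *asp-5* (0.056), *haf-9* (0.067), *col-129* (0.069), *act-5* (0.081), *gas-1* (0.095), *crt-1* (0.14), *npa-1* (0.15), *lap-2* (0.16), *eef-1A.2* (0.18) and *col-144* (0.25). It also turned the medians of the aspartyl proteases (2.7e-04) and of the other peptidases (0.021), and, among groups of 2 genes, that of the transthyretin-related genes (0.34). Upper-quartile scaling turned that of the 2 conjugation enzymes (-0.24), and leaving out wild-type replicate 1 turned the transthyretin-related one (0.092). *col-144* was at 0.21 without wild-type replicate 1 and 0.02 without OE replicate 1, and the cause was not tested.

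With the replicate number as a block, 48 genes fell and 25 rose. Deviations of same-numbered libraries from their group means correlated at -0.11 between OE and wild type, -0.13 between OE and KO and -0.14 between wild type and KO across 85 genes, so the numbers were not taken as pairs. The crossed pairing of the OE and wild-type libraries, a block chosen after seeing the data, gave 54 lower and 25 higher. The fit of the OE and wild-type libraries alone also gave 48 and 25. voom on the recovered reads gave 59 and 25, with all genes but *col-144* that had not passed now lower. With 10 to 100 reads in an OE library for 7 genes, counting limits the precision of the largest falls.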
